A study of Homo sapiens with 6 samples.

Results

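The 10 genes described here cover cystine import (SLC7A11 and SLC3A2), glutathione synthesis (GCLC, GCLM and GSS), its recycling (GSR), its use (GPX1, GPX4 and GLRX) and its breakdown (CHAC1). They were chosen by symbol, and all 10 had a single row among the 30735 genes of the deposited table. The mRNA came from SET-2, a human megakaryoblastic leukaemia cell line that carries a mutant JAK2. The 6 libraries fell into 3 labelled as placebo, called control here, and 3 from cells treated with CPL, and no other genotype, strain or agent was given for either group. The sources used here do not say what CPL is, at which dose it was given or for how long, and a single cell line was studied. Whether replicates were separate cultures is not stated, so the p-values rest on a spread between libraries that may be technical. In bulk RNA, fewer cells of a type and less RNA per cell cannot be told apart.

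Glutathione is the main small thiol of the cell and a tripeptide of glutamate, cysteine and glycine. Cysteine mostly enters as its oxidised dimer cystine, through an antiporter of the light chain SLC7A11 and the heavy chain SLC3A2 that gives out glutamate in exchange. Glutamate-cysteine ligase and then glutathione synthetase build the tripeptide, peroxidases oxidise it while reducing peroxides, and glutathione reductase restores it with NADPH. SLC7A11, GCLC, GCLM and GSR are textbook targets of the oxidative stress factor NRF2, whereas SLC7A11 and CHAC1 are also targets of ATF4, a factor of the amino acid and stress response.

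Promoter sequences, from 250 bases before to 50 bases after a RefSeq start site on GRCh38.p14, were found for 7 of the 10 genes (SLC7A11, GSS and GSR had none in the table used). They were searched on both strands for the antioxidant response element core TGACNNNGC, bound by NRF2 with small MAF proteins, and for TGATGNAA, the core of composite elements bound by ATF4 with C/EBP factors. The promoters shown are those with a match, with the matches in capitals and each sequence 5′ to 3′ on the gene's strand. The promoters searched for GCLC, GPX1 and GLRX (1 each) and for GPX4 (3) held no match. They lie at chr11:62881449-62881748 (plus strand) for SLC3A2, chr1:93909381-93909680 (minus strand) for GCLM and chr15:40953221-40953520 (plus strand) for CHAC1.
SLC3A2: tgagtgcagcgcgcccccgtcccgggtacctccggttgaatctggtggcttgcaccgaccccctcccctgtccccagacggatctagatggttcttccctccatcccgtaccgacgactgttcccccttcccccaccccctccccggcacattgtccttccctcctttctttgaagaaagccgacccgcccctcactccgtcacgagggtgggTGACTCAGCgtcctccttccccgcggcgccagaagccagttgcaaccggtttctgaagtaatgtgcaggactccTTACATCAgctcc
GCLM: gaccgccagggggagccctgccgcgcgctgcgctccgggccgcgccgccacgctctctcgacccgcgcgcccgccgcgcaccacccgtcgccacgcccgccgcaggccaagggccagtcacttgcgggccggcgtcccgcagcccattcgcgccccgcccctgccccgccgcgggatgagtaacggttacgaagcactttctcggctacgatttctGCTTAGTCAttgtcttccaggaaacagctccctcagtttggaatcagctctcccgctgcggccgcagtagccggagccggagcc
CHAC1: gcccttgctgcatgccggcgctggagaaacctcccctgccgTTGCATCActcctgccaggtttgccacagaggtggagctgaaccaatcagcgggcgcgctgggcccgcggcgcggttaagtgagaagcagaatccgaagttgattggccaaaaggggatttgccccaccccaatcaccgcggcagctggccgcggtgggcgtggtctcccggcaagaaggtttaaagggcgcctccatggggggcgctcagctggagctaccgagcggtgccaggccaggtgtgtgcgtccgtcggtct
In SLC3A2, 1 of its 3 promoters held both motifs, the antioxidant core as TGACTCAGC starting 37 bases upstream of the start site and the composite core, on the opposite strand, as TTACATCA at base 38 downstream. The antioxidant core of GCLM lay on the opposite strand, starting 34 bases upstream as GCTTAGTCA, and the composite core of CHAC1, also on the opposite strand, 209 bases upstream as TTGCATCA. No match overlapped another. Of 35116 RefSeq promoters of this length, 13.3% held the antioxidant core and 3.62% the composite core. These shares are per promoter and not per gene, and SLC3A2 and GPX4 had 3 promoters each. A match is a run of letters and no evidence of binding, and a promoter without one says only that these letters are not in this window.

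GPX1 and GPX4 are selenoproteins, in which a TGA codon inside the reading frame is read as selenocysteine, the residue that reacts with the peroxide. The annotated codon was number 49 in GPX1 (chromosome 3, 49358132 to 49358134, minus strand) and number 46 in GPX4 (chromosome 19, 1105403 to 1105405, plus strand; GRCh38, GENCODE 29). The stretches below give it in capitals with 21 bases on either side, since among the 10 genes these peroxidases are the selenoproteins.
GPX1: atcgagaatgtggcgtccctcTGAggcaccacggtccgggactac
GPX4: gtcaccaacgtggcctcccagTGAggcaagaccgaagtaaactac
Over these 45 bases the genes matched at 28 (62.2%).

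The depth recovered from the FPKM values (fragments per kilobase of gene, scaled to library depth) ranged from 14647948 to 18239579 reads per library, so 3 reads on a gene of 1 kilobase stood for 0.164 to 0.205 FPKM, a floor that covers counting error only. CPL replicate 1 stood apart along GC content, the share of G and C bases in a gene's longest transcript. Against the mean of the 6 libraries, which each library itself moves, the rank correlation of a gene's deviation with GC across 13074 genes was 0.736 in CPL replicate 1. It was −0.51 in control replicate 2, −0.475 in CPL replicate 3 and between −0.236 and −0.00493 in the rest. PF4 had no row. All 10 megakaryoblast markers with a row, among 11 listed, reached 1 FPKM in at least 3 libraries, with ITGA2B from 149.9 to 226.9 FPKM. Their summed level was 592.1 to 660.03 FPKM in the controls and 710.5 to 937.1 in CPL, and its part in the results below was not tested. Of 12 markers of 5 other cell types, 10 had a row, none reached 1 FPKM in 3 libraries, and DCN and MS4A1 were those without one.

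In CPL-treated cells the mRNA of SLC7A11 and GSR rose, by 3.67-fold and 1.93-fold in the mean. The other 8 genes did not pass the test in the values as deposited. Among those 8, SLC3A2, GCLM and CHAC1 had every CPL library above every control, GPX1 and GLRX had every CPL library below, and GCLC, GSS and GPX4 overlapped. All 10 genes passed the filter of at least 1 FPKM in at least 3 libraries, CHAC1 through its CPL libraries alone. The test was limma on log2(FPKM + 1) with Benjamini-Hochberg adjustment over 13092 genes and a threshold of 0.05. On this scale fold changes of low genes are understated. It called 2 of the 10 genes higher, where 1.09% of all tested genes were, and none lower, where 0.665% were. At an unadjusted limma p under 0.05, 5 of the 10 were higher, against 9.54% of all tested genes, and 2 were lower, against 1309 of the 13092. Every CPL library lay above every control in 5 of the 10 genes, against 14.1% of all tested genes, and below in 2, against 14.9%. The median log2 change was 0.24 over the 10 genes and −0.01 over all tested genes. CHAC1 is among the 5 in both counts and enters the median. As the filter admitted it through its CPL libraries alone, it carries no weight there against all tested genes. These genes were picked with earlier results of the same libraries known, so the counts describe them and do not support a shift of the group.

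**Figure D1:**
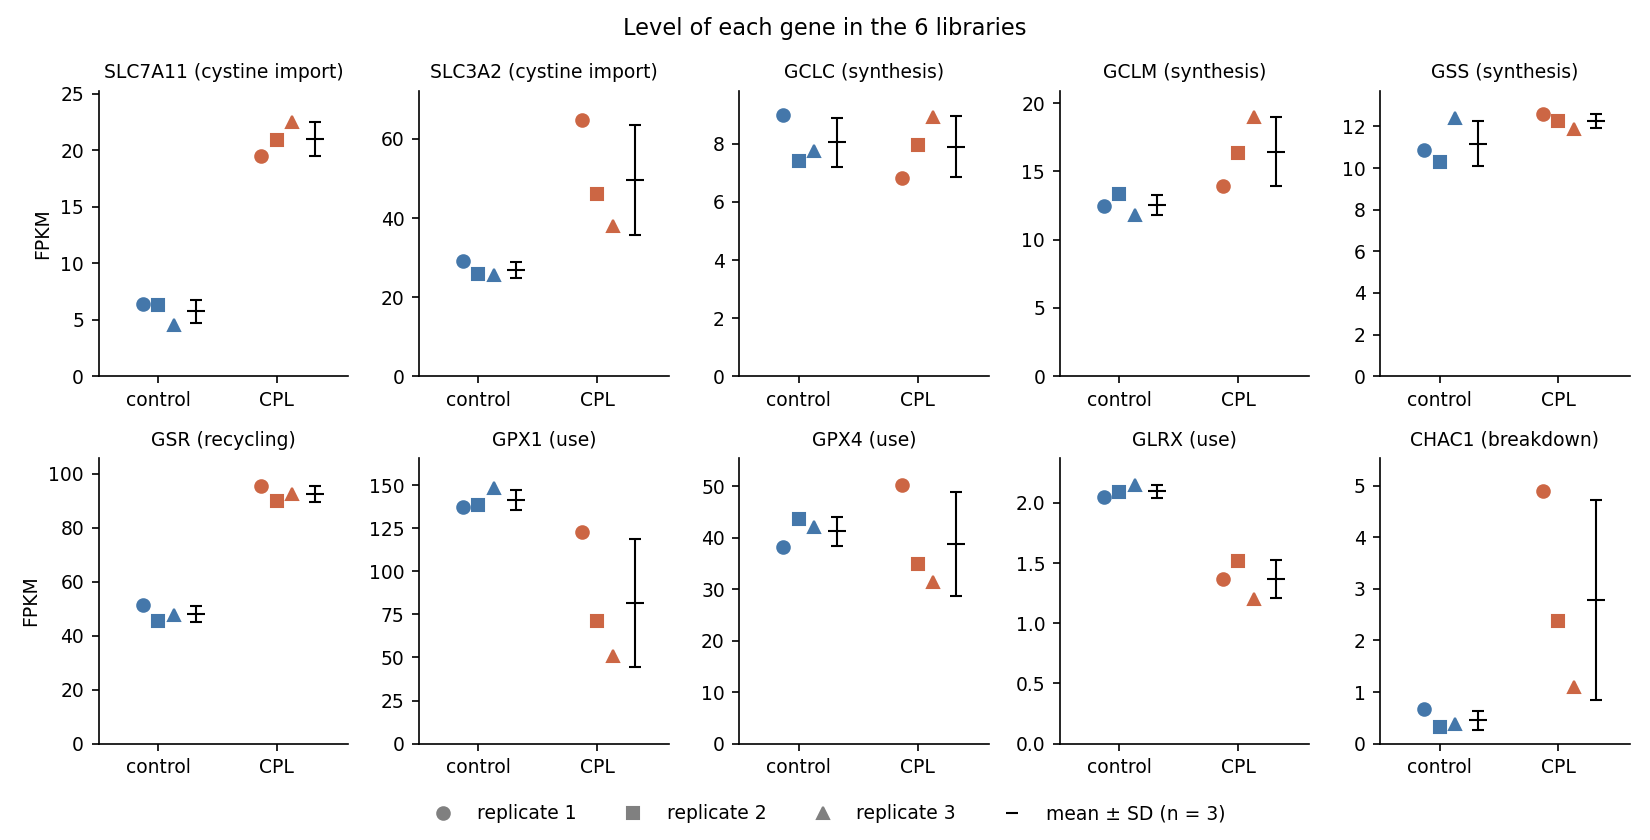
FPKM (y axis, from 0) of each of the 10 genes in the 3 control libraries (blue) and the 3 CPL libraries (orange), circles, squares and triangles for replicates 1, 2 and 3, and the mean ± SD (n = 3) in black. SLC7A11 and GSR show tight groups far apart, while SLC3A2, GPX1, GPX4 and CHAC1 spread widely among the CPL libraries, with replicate 1 highest in each.

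Both chains of the cystine antiporter had higher mRNA in every CPL library than in any control. SLC7A11 (ENSG00000151012, chromosome 4, 138164097 to 138242349, minus strand), the transporting subunit, was at 6.35, 6.32 and 4.51 FPKM in control replicates 1, 2 and 3, and at 19.5, 20.9 and 22.5 FPKM in CPL replicates 1, 2 and 3. No CPL library came near a control, and the lowest CPL value was more than 3 times the highest control. The means were 5.73 ± 1.05 and 20.99 ± 1.497 FPKM (SD, n = 3 each). On the log2 scale SLC7A11 rose by 1.72 ± 0.14 (SE, limma adjusted p = 0.00361). Leaving out any 1 of the 6 libraries kept this call, with adjusted p between 0.00263 and 0.0285. Behind these values stood 737 to 3487 reads per library.

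SLC7A11 shares 9.0% of its exonic bases with SLC7A11-AS1, an annotated RNA on the opposite strand. Whether reads kept their strand is not stated, so those in that stretch cannot be assigned to one of them. SLC7A11-AS1 was low, at 0.188, 0.205 and 0.115 FPKM (12 to 23 reads) in the controls and 0.734, 0.733 and 0.95 FPKM (70 to 94 reads) in CPL, with no overlap between groups. It did not pass the filter and was not tested. The reads listed for it were few beside those listed for SLC7A11 in every library. Both counts depend on how reads of the shared stretch were divided.

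SLC3A2 (ENSG00000168003, chromosome 11, 62856102 to 62888875, plus strand) encodes the heavy chain, also called CD98, which carries SLC7A11 and several other amino acid transporters to the cell surface. It was at 29.1, 25.8 and 25.6 FPKM in control replicates 1, 2 and 3, and at 64.9, 46.1 and 37.9 FPKM in CPL replicates 1, 2 and 3. The groups did not overlap, but CPL replicate 1 was far above the other CPL libraries. The log2 change of 0.83 ± 0.19 (SE, 95% interval 0.40 to 1.27) missed the threshold (limma adjusted p = 0.0762). It passed without CPL replicate 1, at 0.62 ± 0.11 (limma adjusted p = 0.0225), and without CPL replicate 3 (limma adjusted p = 0.0372), and otherwise reached an adjusted p of 0.258 when a library was left out. Its transcripts shared no stretch of 50 bases, the read length, with transcripts of other GENCODE genes.

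Within each library the light chain was compared with the heavy chain, as 1 of 4 ratios of FPKM computed. Every ratio tested gave the same exact p, so Benjamini-Hochberg adjustment leaves it as it is. The ratio of SLC7A11 to SLC3A2 FPKM was 0.218, 0.245 and 0.176 in control replicates 1, 2 and 3, and 0.301, 0.454 and 0.593 in CPL replicates 1, 2 and 3. Every CPL ratio was above every control ratio, with the nearest to the controls in CPL replicate 1. The mean log2 ratio was 1.03 higher in CPL (two-sided exact permutation p = 0.1, the smallest that 3 against 3 libraries allow). GC contents of 35.4% for SLC7A11 and 57.4% for SLC3A2 place this pair far apart on the axis along which CPL replicate 1 differed. Without that library the difference was 1.30.

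**Figure D2:**
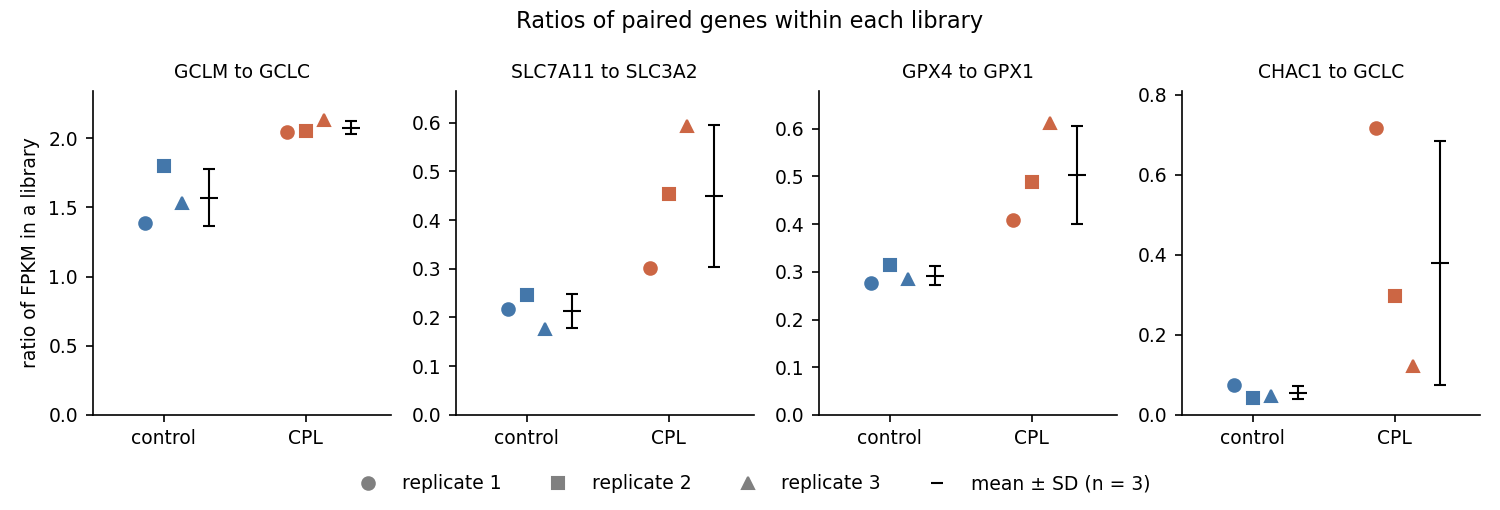
Ratio of FPKM of 2 genes within each library (y axis, from 0) for 3 control (blue) and 3 CPL (orange) libraries, with the mean ± SD (n = 3) in black. In all 4 ratios the CPL libraries lie above the controls, and CHAC1 to GCLC has the widest spread among CPL libraries, from 0.122 to 0.717.

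Of the synthesis genes none passed the test as deposited. Glutamate-cysteine ligase, the enzyme of the rate-limiting step, has a catalytic and a modifier subunit. GCLC (ENSG00000001084, chromosome 6, 53497341 to 53616970, minus strand), the catalytic subunit, was at 9.0, 7.42 and 7.74 FPKM in control replicates 1, 2 and 3, and at 6.83, 7.96 and 8.91 FPKM in CPL replicates 1, 2 and 3. The groups overlapped, though CPL replicate 1 lay below every control. The log2 change of −0.03 had a 95% interval from −0.32 to 0.27 (limma adjusted p = 0.926). GCLC shares 6.2% of its exonic bases with annotated non-coding genes, so a part of its reads is uncertain.

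GCLM (ENSG00000023909, chromosome 1, 93885205 to 93909456, minus strand), the modifier subunit that raises the activity of the catalytic one, was at 12.5, 13.3 and 11.8 FPKM in control replicates 1, 2 and 3. In CPL replicates 1, 2 and 3 it was at 14.0, 16.3 and 19.02 FPKM, all above the controls though only narrowly so in replicate 1. The log2 change was 0.36 ± 0.13 (SE, 95% interval 0.06 to 0.66, limma adjusted p = 0.196). Without CPL replicate 1 it was 0.46 ± 0.10 and passed (limma adjusted p = 0.0405), and no other single library left out gave a pass.

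The ratio of GCLM to GCLC, in FPKM, was 1.39, 1.80 and 1.53 in the 3 controls and 2.05, 2.05 and 2.13 in CPL. The CPL ratios were close together and all above the controls. Their mean log2 ratio was 0.41 higher (two-sided exact permutation p = 0.1, the smallest possible). Both genes are on the AT-rich side, with GC contents of 37.3% for GCLM and 44.3% for GCLC, and without CPL replicate 1 the difference was 0.42. GSS (ENSG00000100983, chromosome 20, 34928433 to 34956027, minus strand), glutathione synthetase, catalyses the second step. It was at 10.8, 10.3 and 12.4 FPKM in control and 12.6, 12.3 and 11.9 in CPL, overlapping groups with a log2 change of 0.13 (95% interval −0.12 to 0.37, limma adjusted p = 0.535).

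GSR (ENSG00000104687, chromosome 8, 30678061 to 30727999, minus strand), glutathione reductase, which turns oxidised glutathione back to its reduced form, rose in CPL. It was at 51.2, 45.5 and 47.5 FPKM in control replicates 1, 2 and 3, and at 95.5, 89.8 and 92.3 FPKM in CPL replicates 1, 2 and 3. The gap between the groups was far wider than the spread in either, and CPL replicate 1 lay with the other CPL libraries. The means of 48.06 ± 2.92 and 92.5 ± 2.9 FPKM (SD, n = 3 each) differed by 0.93 ± 0.09 in log2 (SE, limma adjusted p = 0.00639). The log2 change stayed between 0.89 and 0.98 when 1 library was left out, while its adjusted p crossed the threshold without control replicate 2 (0.0554), control replicate 3 (0.0604) or CPL replicate 2 (0.0527). GSR transcripts shared no 50-base stretch with other genes, 2821 to 5576 reads stood behind each value, and its GC content of 48.2% is near the middle of all tested genes.

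None of the 3 genes that use glutathione passed the test as deposited. GPX1 (ENSG00000233276, chromosome 3, 49357171 to 49358600, minus strand), the abundant peroxidase of cytosol and mitochondria, was at 137.5, 138.1 and 148.2 FPKM in control replicates 1, 2 and 3. In CPL replicates 1, 2 and 3 it was at 122.9, 71.3 and 51.1 FPKM, every one below the controls but the first only slightly. The log2 change of −0.87 ± 0.28 (SE, 95% interval −1.53 to −0.22) missed the threshold (limma adjusted p = 0.157). Without CPL replicate 1 it was −1.21 ± 0.14 and passed (limma adjusted p = 0.0076). With another library left out, its adjusted p was up to 0.371.

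GPX1 has pseudogene copies elsewhere in the genome, and 14.7% of the distinct 50-base stretches of its transcripts also occur in transcripts of other genes, chiefly GPX1P1, a processed pseudogene on the X chromosome. GPX1P1 was listed at 12.96, 12.1 and 12.7 FPKM in the controls and at 4.90, 6.94 and 2.67 FPKM in CPL. It was thus lower in every CPL library too, with a log2 change of −1.29 that missed the threshold (limma adjusted p = 0.0535). The sources used here do not say how reads were divided between the copies, so the value of each is uncertain to that extent.

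GPX4 (ENSG00000167468, chromosome 19, 1103926 to 1106791, plus strand) is the peroxidase that reduces lipid hydroperoxides in membranes and restrains ferroptosis. Its levels were 38.1, 43.5 and 42.1 FPKM in control replicates 1, 2 and 3, and 50.3, 34.8 and 31.3 FPKM in CPL replicates 1, 2 and 3. CPL replicate 1 lay above all controls and the other CPL libraries below them, so the groups overlapped. The log2 change was −0.11 (95% interval −0.52 to 0.29, limma adjusted p = 0.754), and −0.31 without CPL replicate 1 (limma adjusted p = 0.0889).

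Within each library GPX4 was higher relative to GPX1 in CPL than in control. Their ratio was 0.277, 0.315 and 0.284 in the controls and 0.409, 0.488 and 0.613 in CPL, with no overlap. The mean log2 ratio was 0.77 higher in CPL (two-sided exact permutation p = 0.1, the smallest possible). These genes are alike in GC content, 64.2% for GPX1 and 62.5% for GPX4, and without CPL replicate 1 the difference was 0.91.

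GLRX (ENSG00000173221, chromosome 5, 95751319 to 95823005, minus strand) encodes glutaredoxin, which uses glutathione to remove it from modified proteins. It was low, at 2.05, 2.09 and 2.15 FPKM in the controls and 1.37, 1.52 and 1.21 FPKM in CPL (126 to 248 reads per library). Every CPL library was below every control. The log2 change of −0.39 ± 0.12 (SE, 95% interval −0.68 to −0.10) did not pass (limma adjusted p = 0.152), nor did it in any fit that left out 1 library. Nor did CPL replicate 1 stand apart here.

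CHAC1 (ENSG00000128965, chromosome 15, 40952962 to 40956519, plus strand) encodes a cyclotransferase that splits glutathione inside the cell and is a known marker of the ATF4 response. It was at 0.663, 0.32 and 0.373 FPKM in control replicates 1, 2 and 3 (20, 12 and 13 reads), and at 4.90, 2.37 and 1.09 FPKM in CPL replicates 1, 2 and 3 (156, 79 and 36 reads). All CPL libraries were above the controls, and replicate 1 was more than 4 times replicate 3. The means were 0.452 ± 0.185 and 2.79 ± 1.94 FPKM (SD, n = 3 each). The log2 change of 1.26 ± 0.35 (SE, 95% interval 0.45 to 2.08) did not pass (limma adjusted p = 0.119). Since CHAC1 entered the test through its CPL libraries alone, its difference is partly set by the filter, and without any 1 CPL library it fell under the filter.

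Relative to GCLC, the synthesis enzyme, CHAC1 was at 0.0737, 0.0431 and 0.0482 in the controls and 0.717, 0.298 and 0.122 in CPL, as ratios of FPKM. The CPL ratios all exceeded the controls but ranged widely. As CHAC1 entered through its CPL libraries alone, this difference is given as a description, with no p-value. The mean log2 ratio was 2.47 higher in CPL, 1.84 higher without CPL replicate 1, and 1.29 higher with 1 FPKM added to both genes, at GC contents of 62.6% for CHAC1 and 44.3% for GCLC.

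Set in order of FPKM, which is per length, the 10 genes in control ran from GPX1 at 141.3 FPKM through GSR, GPX4, SLC3A2, GCLM, GSS, GCLC, SLC7A11 and GLRX to CHAC1 at 0.452 FPKM. Among neighbours in that order, GCLM and GSS alone had overlapping ranges. In CPL the order began with GSR at 92.5 FPKM, whose range overlapped that of GPX1, and GPX1, SLC3A2 and GPX4 overlapped in turn. SLC7A11 stood at rank 8 in control and rank 5 in CPL, where its lowest library (19.5 FPKM) was above the highest of GCLM (19.02 FPKM). CHAC1 and GLRX, at the foot of the order, overlapped in CPL.

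Across all tested genes CPL replicate 1 was higher than the other CPL libraries at high GC content and lower at low GC content, and 8 of the 10 genes differed in the direction of their neighbours in GC. GPX1, CHAC1, GPX4 and SLC3A2, the 4 genes with the highest GC content of the 10, were 1.01, 1.15, 0.59 and 0.62 higher in it, in log2(FPKM + 1), than in the mean of CPL replicates 2 and 3. The 500 tested genes nearest in GC had medians of 0.69, 0.59, 0.59 and 0.37. GPX4 thus lay at the median of genes like it in GC, while GPX1 and CHAC1 lay above the 90th percentile of those genes (0.90 and 0.85). GCLM and SLC7A11, the lowest in GC, differed by −0.32 and −0.15 in CPL replicate 1, against medians of −0.36 and −0.37. GCLC differed by −0.27, against a median of −0.16, and GSS by 0.05, against 0.22. GSR (0.07, against −0.04) and GLRX (0.01, against −0.14) differed slightly in the opposite direction to their neighbours in GC.

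**Figure D3:**
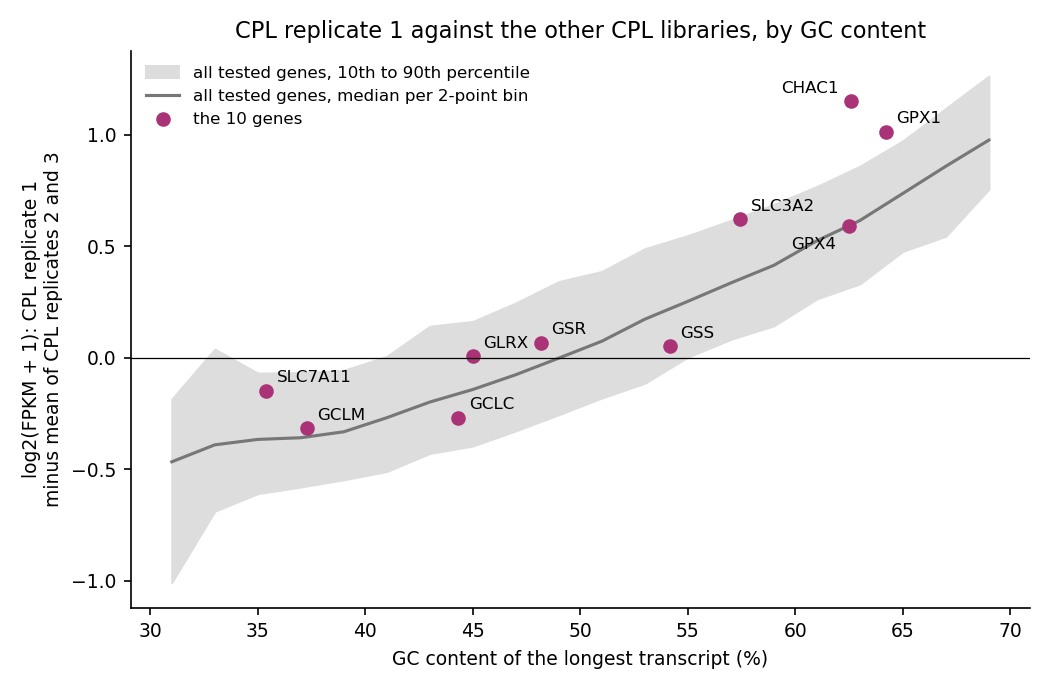
Log2(FPKM + 1) in CPL replicate 1 minus the mean of CPL replicates 2 and 3 (y axis) against the GC content in percent (x axis), for the 10 genes (points) and for all tested genes (line, median per bin; band, 10th to 90th percentile). The line climbs from below 0 at low GC to above 0 at high GC, and CHAC1 and GPX1 lie over the band.

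With the GC trend removed from each library by loess, 5 of the 10 genes were called higher and 2 lower by limma, where 7.16% and 6.3% of 13074 tested genes were. SLC7A11 (log2 change 1.85), GSR (0.94), SLC3A2 (0.71, limma adjusted p = 0.00526), GCLM (0.48, 0.00358) and CHAC1 (1.05, 0.0234) were the higher ones. GPX1 (−1.12, limma adjusted p = 0.00272) and GPX4 (−0.33, 0.0442) were the lower ones, and GPX4 lost the call with a replicate block (0.0691). CHAC1 counts among the 5 although the filter admitted it through its CPL libraries alone, so its call carries no weight against the share of all genes. GCLC (0.039), GSS (0.066) and GLRX (−0.33, limma adjusted p = 0.0996) were not called. This correction was fitted to each library's deviation from the mean of the 6 libraries. Any difference between the groups along GC content was therefore removed with it. Leaving out CPL replicate 1 instead, with no correction, 4 were called higher (SLC7A11, GSR, SLC3A2 and GCLM) and GPX1 lower, where 2.84% and 2.73% of 12770 tested genes were. With the correction and without that library, the same 4 and GPX1 were called, where 5.02% and 4.32% of 12752 tested genes were.

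**Figure D4:**
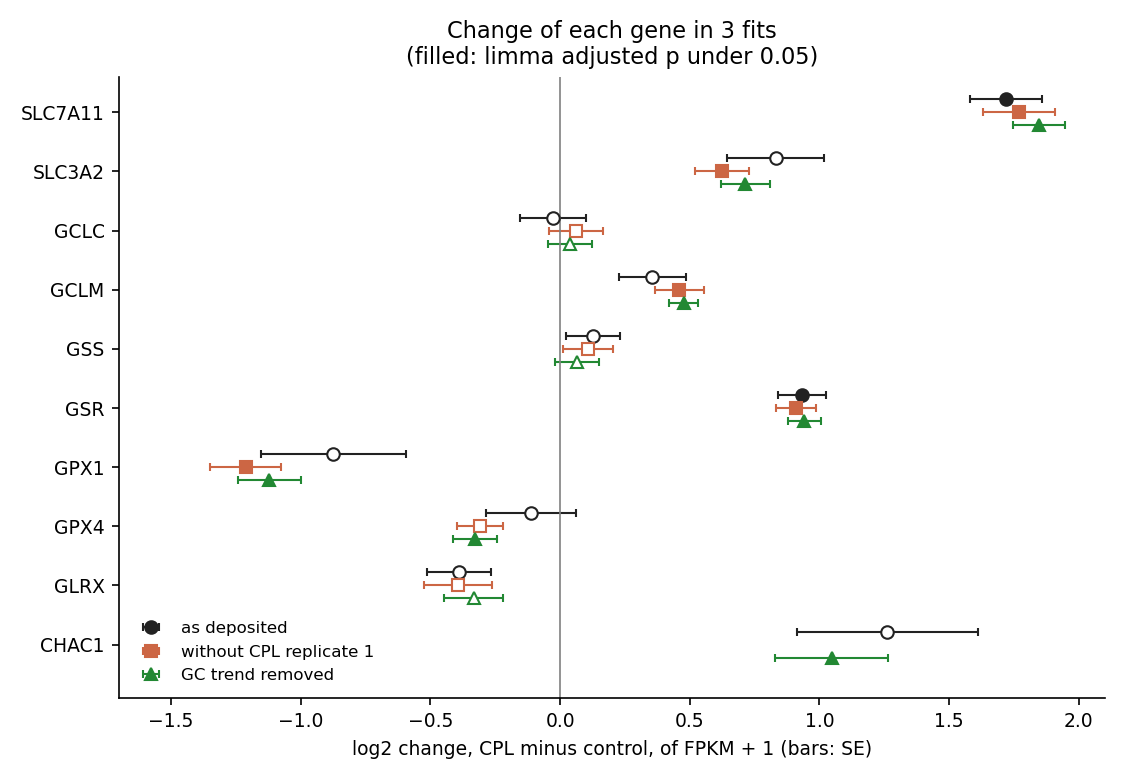
Log2 change of FPKM + 1, CPL minus control (x axis), with its SE, for the 10 genes as deposited (circles), without CPL replicate 1 (squares) and with the GC trend removed (triangles), filled where the limma adjusted p is under 0.05. SLC7A11 and GSR are filled in all 3, SLC3A2, GCLM and GPX1 in the latter 2, GPX4 and CHAC1 with the GC trend removed alone, and CHAC1 has no square because it fell under the filter.

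Other genes of the pathway were taken from 8 lists of 66 names, of which 65 had a row and 49 were tested. As deposited, limma called 1 of the 49 higher, where 1.09% of all tested genes were, and none lower, where 0.665% were, and the median log2 change was 0.14. At an unadjusted limma p under 0.05, 11 of the 49 were higher, against 9.54% of all tested genes, and 3 lower, against 1309 of the 13092. With the GC trend removed, 9 were called higher, against 7.16%, and 2 lower, against 6.3%. Without CPL replicate 1, 3 of 48 tested were called higher, against 2.84% of all tested genes, and 3 lower, against 2.73%. The gene called as deposited was MAFF, a small MAF protein that pairs with NRF2, in the list of regulators. It went from 1.47 ± 0.15 to 4.81 ± 1.19 FPKM (SD, n = 3 each; log2 change 1.22, limma adjusted p = 0.019), and lost the call in 4 of the 6 fits without 1 library (limma adjusted p up to 0.105). Of the 8 regulators tested the other 7 did not pass as deposited. With the GC trend removed 4 were called higher, MAFF, MAFG, BACH1 and DDIT3, and without CPL replicate 1 MAFF and MAFG were. The most abundant were ATF4 (130.4 ± 11.7 against 146.4 ± 8.9 FPKM, limma adjusted p = 0.421) and KEAP1, the inhibitor of NRF2 (50.7 ± 3.6 against 66.0 ± 19.6 FPKM, 0.382). The NRF2 gene itself, NFE2L2, had a log2 change of −0.12 (limma adjusted p = 0.609).

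None of 6 tested cysteine supply genes passed, and their median log2 change was 0.37. SLC1A5, a neutral amino acid transporter with a GC content of 61.3%, averaged 79.6 ± 3.4 FPKM in the controls and 106.8 ± 33.2 FPKM in CPL (SD, n = 3 each; limma adjusted p = 0.34). Its CPL libraries were at 144.4, 94.5 and 81.6 FPKM, so replicate 1 stood far above the others and replicate 3 lay within the controls. CTNS, the lysosomal cystine exporter, was at 7.81 ± 0.52 and 9.88 ± 1.45 FPKM (limma adjusted p = 0.244). Of 3 tested light chains that also pair with SLC3A2, none passed (median 0.19). SLC7A5, which carries large neutral amino acids, averaged 19.9 ± 0.96 FPKM in the controls and 32.9 ± 8.1 FPKM in CPL (SD, n = 3 each; log2 change 0.67, limma adjusted p = 0.0956), and SLC7A8 was at 8.88 ± 0.94 and 8.46 ± 1.10 FPKM (limma adjusted p = 0.813). With the GC trend removed, SLC1A4 and SLC7A5 were called higher in these lists, and without CPL replicate 1 SLC7A5 alone was.

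Of 8 tested breakdown and salvage genes none passed (median −0.10). GGCT, a gamma-glutamylcyclotransferase, averaged 28.8 ± 1.1 FPKM in the controls and 20.2 ± 1.8 FPKM in CPL, every CPL library below every control (log2 change −0.49, limma adjusted p = 0.0601). ANPEP, a surface aminopeptidase, was at 57.9 ± 2.3 and 69.6 ± 10.7 FPKM, overlapping groups (limma adjusted p = 0.315). Of 6 tested other peroxidases and glutaredoxins none passed (median −0.18). GSTO1, a glutathione transferase with thioltransferase activity, was at 134.9 ± 7.8 and 115.9 ± 8.4 FPKM (limma adjusted p = 0.278). The peroxidase PRDX6 was at 93.8 ± 3.7 and 98.2 ± 7.3 FPKM (0.754). With the GC trend removed, the salvage peptidases LAP3 and CNDP2 were called lower. Without CPL replicate 1, GGCT, LAP3 and the glutaredoxin GLRX5 were called lower.

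None of 6 tested glutathione transport genes passed (median 0.20), with the efflux pump ABCC4 averaging 86.9 ± 5.7 FPKM in the controls against 96.1 ± 7.7 FPKM in CPL (limma adjusted p = 0.48). SLC25A39, which brings glutathione into mitochondria, was at 32.6 ± 2.02 and 35.7 ± 9.97 FPKM (limma adjusted p = 0.801). ABCC1, ABCC3 and ABCC5 were called higher with the GC trend removed, and no gene of this list was called without CPL replicate 1. Of 5 glyoxalase and formaldehyde disposal genes none passed (median 0.14), with GLO1 at 102 ± 8.4 and 116.1 ± 22.5 FPKM (limma adjusted p = 0.582) and ESD at 40.2 ± 4.97 and 32.1 ± 4.95 FPKM (0.282), both with overlapping groups. Of 7 tested selenoprotein synthesis genes none passed (median −0.10). SEPHS2, itself a selenoprotein, which makes the selenium donor, was at 85.2 ± 2.1 and 103.5 ± 12.5 FPKM (limma adjusted p = 0.239) and SARS, which charges the tRNA for serine that is turned into selenocysteine, at 53.4 ± 3.9 and 46.7 ± 1.3 FPKM (0.315).

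**Figure D5:**
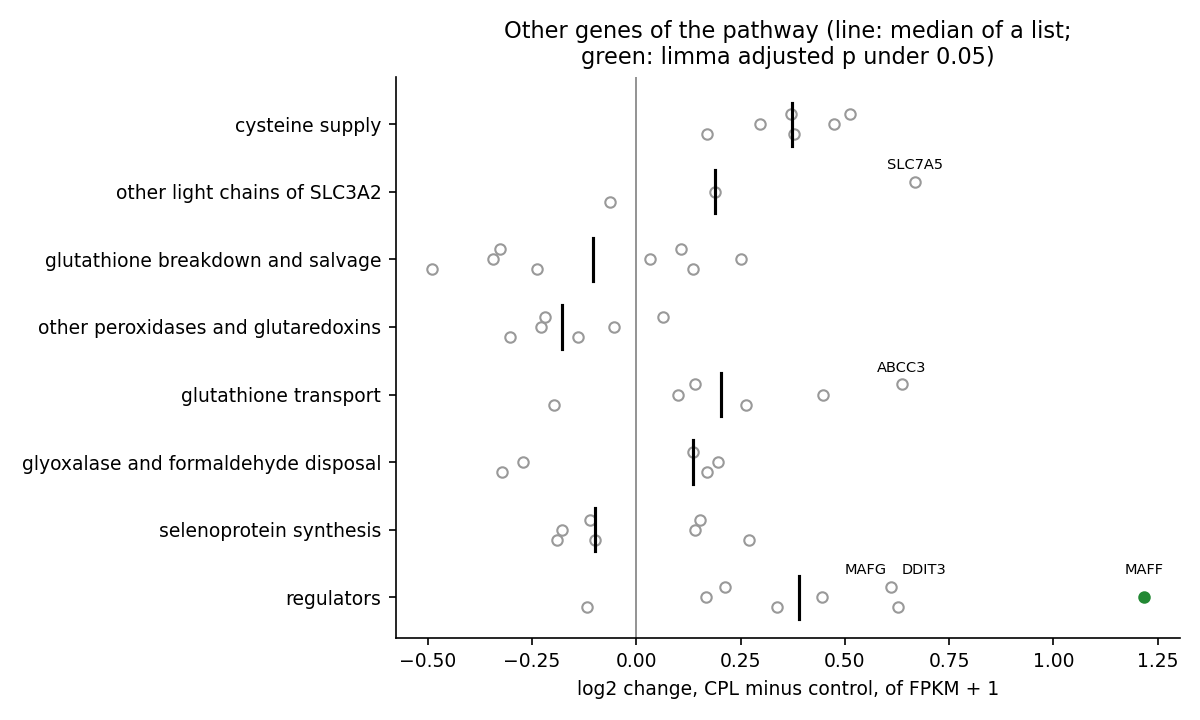
Log2 change of FPKM + 1, CPL minus control (x axis), of the 49 tested genes in 8 pathway lists (rows, 1 circle per gene), with a black line at each list's median and a few genes named. MAFF is the single gene past the threshold (green), and list medians lie between −0.18 and 0.39.

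By Euclidean distance over the 6 libraries in log2(FPKM + 1), each gene set relative to its control mean, the 5 tested genes nearest to SLC7A11 were THBS1 (0.416), NMRAL2P (0.435), LIF (0.472), AKR1C1 (0.521) and CXCL3 (0.552). THBS1 encodes the matrix protein thrombospondin 1, NMRAL2P is a transcribed pseudogene, LIF and CXCL3 are a cytokine and a chemokine, and AKR1C1 is an aldo-keto reductase. Their levels in control replicates 1, 2 and 3 against CPL replicates 1, 2 and 3 ran, for THBS1, from 3.94, 4.95 and 4.47 to 16.02, 17.5 and 16.8 FPKM. AKR1C1, the highest of them, went from 10.6 ± 0.4 to 36.4 ± 4.3 FPKM (SD, n = 3 each). LIF passed the filter through its CPL libraries alone.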

How the data were processed

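RNA of 6 SET-2 libraries (3 control, 3 CPL, grouped by title) was purified with oligo(dT) and read as single ends on a DNBSEQ instrument, per the labels' protocols. A single table, deposited by the authors, held FPKM for 30735 genes. No header names the unit, which was read from the values: multiplied by exon length in GENCODE 29, 98.7% to 99.0% of values worth up to 20 reads were whole within 0.1 of a read, which gave the depth of each library. Per the submitters' processing notes, the build was GRCh38 and the tools, whose roles are not stated, included RSEM 1.2.12, HISAT2 2.0.4, DESeq2 1.4.5 and Bowtie2 2.2.5.

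Genes reaching 1 FPKM in 3 or more libraries were tested two-sided on log2(FPKM + 1) by limma 3.58.1 (R 4.3.3). The model held the group alone, its variances were moderated with a trend and robustly, and p-values were adjusted by Benjamini-Hochberg. The limma function was tested on simulated reads without a GC trend or an outlying library, so that check does not cover these features. Ratios of FPKM within a library were compared by exact permutation. Within groups, libraries differed beyond sampling of reads (chi-square over degrees of freedom, 7.89 to 56.9), so each library counted as 1 sample. GC content was that of the longest GENCODE 29 transcript. Alternatives covered the pseudocount, filter, quantile normalization, replicate block, GC trend (loess, span 0.5) and each library left out. The fit with the GC trend removed and without CPL replicate 1 was chosen after seeing the data. Tables were read with Python 3.11.15 and pandas 2.3.3.

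The 10 genes and the 8 lists were chosen with earlier results of these data known. Named from a list were genes past the threshold and the 2 most abundant of the rest. NFE2L2, MAFG, BACH1, DDIT3, ABCC1, ABCC3, ABCC5, SLC1A4, LAP3, CNDP2, GLRX5, GPX1P1 and SLC7A11-AS1 were named after their values were seen.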

Additional observations from a re-analysis of the deposited data

How the results depend on the processing

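The 2 genes called higher became 5 with the GC trend removed, with or without a replicate block, 4 with the GC trend removed and CPL replicate 1 left out, and 1 to 4 when 1 library was left out. The 0 called lower became 2 with the GC trend removed, 1 with the block added or with CPL replicate 1 left out as well, and 0 to 1 when 1 library was left out. Over all genes, the 143 higher and 87 lower were 21 and 4 with no filter, 48 and 15 with the replicate block, 936 and 824 with the GC trend removed, 560 and 523 with both, and 640 and 551 with the GC trend removed and CPL replicate 1 left out. They ranged from 20 to 363 and from 1 to 348 when 1 library was left out. In the pathway lists, 1 higher and 0 lower became 0 higher with no filter, 0 and 1 with the filter at 5 FPKM, 9 and 2 with the GC trend removed, 6 and 2 with the block added, and 7 and 4 without CPL replicate 1 in addition. When 1 library was left out they were 0 to 3 and 0 to 3. The cause of these shifts was not tested.

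Of 134 refits of single genes among the 10, 108 kept direction and side of the threshold, 17 gained a call, 3 lost one and 6 changed sign, all of uncalled values near 0. GCLC turned to 0.039 with the GC trend removed, with or without the replicate block, and to 0.082 with CPL replicate 1 left out in addition, and ranged from −0.109 to 0.0619 when 1 library was left out. GPX4 ranged from −0.311 to 0.0227 in those fits, positive without CPL replicate 3. SLC3A2 also passed with the filter at 5 FPKM (limma adjusted p = 0.0497). The ratios kept their direction under every alternative run, and CHAC1 to GCLC moved most, from 2.47 to 1.29 with 1 FPKM added to both genes. Same-numbered libraries had correlated deviations of 0.0836, 0.0885 and −0.168. With 3 libraries per group that also differed along GC content, these values cannot show whether the numbers pair the libraries. The replicate block changed no call among the 10 genes as deposited. For the ratios other than CHAC1 to GCLC, the sign-flip test within numbers gave an exact p of 0.25, the smallest possible. CHAC1 in control rests on 12 to 20 reads, which limits its fold.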
